A study of Mus musculus with 8 samples.

Results

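The 9 genes described here encode proteins of the complement system that myeloid cells make or sense: the C1q subunits C1qa, C1qb and C1qc, the central components C3 and C4b, the alternative-route genes Cfb and Cfp, and the anaphylatoxin receptors C3ar1 and C5ar1. They were chosen by name, and each of the 9 names had 1 row among the 55450 genes of the count table. The genes were measured in 8 libraries from GL261 tumors, a mouse glioma line grown at its natural site in the brain of wild-type (WT) mice. RNA sequencing of 3′ ends was done on 2 sorted populations, resident microglia in 3 libraries and, in the other 5, bone marrow-derived macrophages (BMDM), cells that come from blood monocytes. Both populations were positive for F4/80 and CD11b, negative for LY6G and low or negative for LY6C. Microglia had low CD45 and low or no CD49d, while BMDM were CD45 positive with high CD49d. All libraries came from tumor-bearing brain, so no group without a tumor is compared. Mouse age and whether each library was 1 mouse are not given in the sources used here, so a p-value here reflects spread among these libraries only, which may be technical.

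Complement is a cascade of plasma and locally made proteins that tags targets for uptake and calls in leukocytes. C1q, built from C1qa, C1qb and C1qc chains, starts the classical route, which cuts C4 and C2. All routes meet at C3, and factor B (Cfb) and properdin (Cfp) drive the alternative route that amplifies C3 cleavage. The small fragments C3a and C5a act through the receptors encoded by C3ar1 and C5ar1. In brain, microglia are known as the main source of C1q, and C1q and C3 take part in the removal of synapses.

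The libraries held 5890406 to 16659154 counts. In BMDM 1 to 3 the model Gm42418, which overlies ribosomal RNA, took 14.8% to 19.8% of these, while BMDM 4 (41.2%), BMDM 5 (48.9%) and the microglia (34.0% to 47.0%) gave it more. The labels held against marker genes. Of 12 microglia markers 8 were lower in BMDM and 0 higher, and of 12 markers of monocyte-derived macrophages 9 were higher and 0 lower. Among the latter, Itga4 encodes the sorted CD49d, and Ly6c2 encodes a form of LY6C, which the sort also used. Levels below are CPM, the counts of a gene per 1000000 counts of its library, after scaling between libraries. The microglia markers summed to 2866 to 8313 CPM in microglia and 799 to 1971 in BMDM. Those of monocyte-derived macrophages summed to 171 to 271 and 869 to 3690. Of the microglia markers, Tmem119 (136 to 391 against 29.0 to 205) and Fcrls (37.3 to 175 against 10.5 to 111) overlapped between the groups. The part of microglia RNA in the BMDM values was not tested. A gene is said to have risen or fallen where edgeR's quasi-likelihood test gave an adjusted p under 0.05 (Benjamini-Hochberg, over 16467 genes), and fold changes are BMDM against microglia.

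The split among the 9 genes was C4b lower in BMDM (8.02-fold), Cfp and C3 higher (10.3-fold and 3.91-fold), and 6 without a call. All 9 passed the filter on low counts. The test called 1.93% of all genes, 1.11% as higher and 0.814% as lower in BMDM. The median log2 fold change was 0.11 over the 9 genes and 0.078 over all genes tested, and the median size without sign was 0.97 against 0.71. In the plot of CPM by library, groups do not overlap for C3, C4b, Cfp and C5ar1, 3 of the 9 being higher and 1 lower in BMDM. Of all genes tested, 4.32% lay without overlap higher in BMDM and 8.66% lower.

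**Figure D1:**
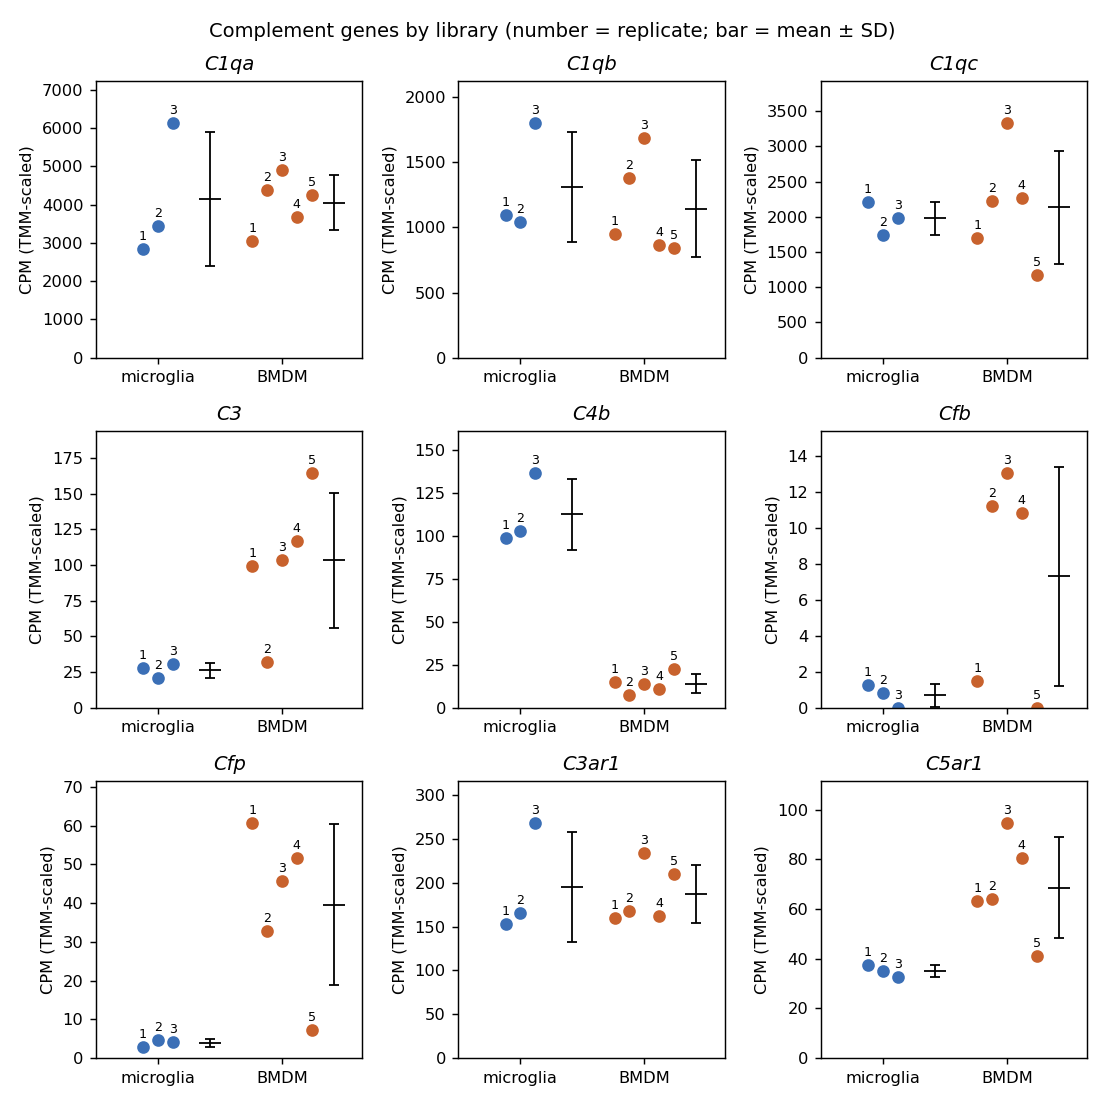
CPM (vertical axes, from 0) of the 9 genes in each microglia (blue, 3) and BMDM (orange, 5) library, with the replicate number above each point and the mean ± SD at the right of each group. All BMDM libraries lie below the microglia for C4b (7.63 to 22.4 against 98.7 to 136 CPM), and above them for C3, Cfp and C5ar1, while the C1q genes and C3ar1 overlap.

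C1qa, C1qb and C1qc lie side by side on the minus strand of chromosome 4 (GRCm38), at 136895917 to 136898803, 136880129 to 136886187 and 136889804 to 136893065. They span 18675 bases, with C1qc in the middle, gaps of 3616 and 2851 bases, and 0 other annotated genes between them. RefSeq promoter sequences (250 bases before to 50 after the start, GRCm38.p6) matched 6 of the 9 genes. The promoters of C1qb (chr4:136886151-136886450, minus strand) and C1qc (chr4:136892865-136893164, minus strand) are shown because these neighbours were called in neither direction. Those of Cfp (chrX:20931506-20931805, minus strand) and C3 (chr17:57228087-57228386, minus strand) are shown because both rose in BMDM. Capitals mark GAGGAA on either strand, the core letters bound by PU.1, the transcription factor that defines myeloid cells.
C1qb promoter: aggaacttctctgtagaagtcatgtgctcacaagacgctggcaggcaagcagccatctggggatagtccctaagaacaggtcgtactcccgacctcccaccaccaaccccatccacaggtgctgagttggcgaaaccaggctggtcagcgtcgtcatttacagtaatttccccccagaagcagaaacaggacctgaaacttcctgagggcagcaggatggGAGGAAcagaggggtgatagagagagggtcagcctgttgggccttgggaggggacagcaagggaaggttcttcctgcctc
C1qc promoter: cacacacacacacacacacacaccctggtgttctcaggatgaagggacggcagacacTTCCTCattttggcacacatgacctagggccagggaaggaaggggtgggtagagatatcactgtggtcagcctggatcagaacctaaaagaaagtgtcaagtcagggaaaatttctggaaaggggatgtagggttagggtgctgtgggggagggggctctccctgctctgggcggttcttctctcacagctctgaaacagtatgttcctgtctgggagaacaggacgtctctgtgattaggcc
Cfp promoter: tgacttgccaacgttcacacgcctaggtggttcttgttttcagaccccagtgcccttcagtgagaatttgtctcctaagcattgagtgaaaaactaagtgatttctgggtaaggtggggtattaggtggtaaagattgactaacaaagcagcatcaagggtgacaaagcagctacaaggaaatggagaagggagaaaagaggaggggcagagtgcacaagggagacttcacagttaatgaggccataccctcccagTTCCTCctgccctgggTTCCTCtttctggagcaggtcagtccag
C3 promoter: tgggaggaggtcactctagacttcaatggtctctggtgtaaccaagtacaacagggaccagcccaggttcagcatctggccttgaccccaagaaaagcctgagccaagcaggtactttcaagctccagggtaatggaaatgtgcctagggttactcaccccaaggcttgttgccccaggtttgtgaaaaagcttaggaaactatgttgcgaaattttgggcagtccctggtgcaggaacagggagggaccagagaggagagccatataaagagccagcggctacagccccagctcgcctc
The letters GAGGAA occurred 1 time in the C1qb window, at -30 from the start, and 1 time in the C1qc window, at -193. The Cfp window held 2 matches, 6 and 22 bases past the start, and the C3 window 0. At least 1 match was present in 28.28% of 32851 promoter windows of this length. TTNNGNAA, letters of C/EBP sites, was searched on both strands in the same way. It had 3 matches in the C3 window, 1 in that of C1qc and 0 in those of C1qb and Cfp, against 40.68% of all windows with a match. TATAAA, the TATA box, was found in the C3 window (1 match) and in 0 of the other windows shown, against 13.62% of all windows. The C3ar1 window, which is not shown, also had 1 match. These matches describe letters only, and no binding was measured.

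C1q mRNA was abundant in both populations, and edgeR called 0 of its 3 subunit genes, as did DESeq2 and limma-voom, with 0 at an unadjusted p under 0.05. Of all genes, DESeq2 called 5.43%, limma-voom 2.37%, and 13.8% had an unadjusted p under 0.05. C1qa stood at 2843, 3445 and 6131 CPM in microglia 1 to 3 and at 3044, 4374, 4910, 3674 and 4258 in BMDM 1 to 5. Microglia 3 was the highest of all 8 libraries, and the other microglia lay at the low end of the BMDM range or under it. The log2 fold change was -0.031 (SE 0.43, adjusted p = 0.99, edgeR), with a 95% interval of -0.95 to 0.89. C1qb ran at 1097, 1038 and 1800 CPM in microglia and at 948, 1376, 1683, 864 and 839 in BMDM. Microglia 3 was again on top, with BMDM 3 next to it. Its log2 fold change was -0.20 (SE 0.41, adjusted p = 0.913, edgeR; interval -1.08 to 0.69). C1qc had 2212.5, 1739 and 1982 CPM in microglia and 1695, 2222, 3331, 2265.5 and 1168 in BMDM. Here BMDM 3 was highest and BMDM 5 lowest, with all microglia in between. The value was 0.11 (SE 0.43, adjusted p = 0.96, edgeR; interval -0.81 to 1.03). Over the 3 genes these intervals run from 0.472-fold to 2.04-fold, and the sign of each of the 3 values turned under at least 1 alternative: C1qa was at 0.16 and C1qb at 0.015 with library totals alone, and C1qc at -0.10 without BMDM 3.

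Leaving out Gm42418 and mitochondrial rRNA, the 3 genes together took 1.14%, 1.11% and 1.53% in microglia 1 to 3 and 0.962%, 1.24%, 1.44%, 1.03% and 1.00% of the counts in BMDM 1 to 5. For the lowest, BMDM 1, the exact Clopper-Pearson 95% interval was 0.953% to 0.972%, which covers counting error only. Microglia 3 and BMDM 3 had the highest shares of their groups, and the groups overlapped.

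The 3 subunits enter the C1q protein in equal numbers, but their counts did not keep a fixed ratio. A ratio of counts within 1 library needs no scaling. The log2 ratio of C1qa to C1qc was 0.36, 0.99 and 1.63 in microglia 1 to 3 and 0.84, 0.98, 0.56, 0.70 and 1.87 in BMDM 1 to 5. Microglia 3 and BMDM 5 stood at the top of their groups, the former with high C1qa and the latter with low C1qc. The mean was 0.99 ± 0.63 (SD, n = 3) in microglia and 0.99 ± 0.51 (n = 5) in BMDM. C1qa to C1qb varied less, at 1.62 ± 0.22 (n = 3) and 1.87 ± 0.34 (n = 5), with BMDM 4 and BMDM 5 highest at 2.09 and 2.34. C1qc to C1qb was at 0.63 ± 0.45 (n = 3) and 0.88 ± 0.34 (n = 5). Over the 8 libraries, Pearson's r of log2 CPM was 0.71 for C1qa with C1qb, 0.62 for C1qb with C1qc and 0.18 for C1qa with C1qc. These are descriptions of libraries that share a scaling and differ in depth.

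**Figure D2:**
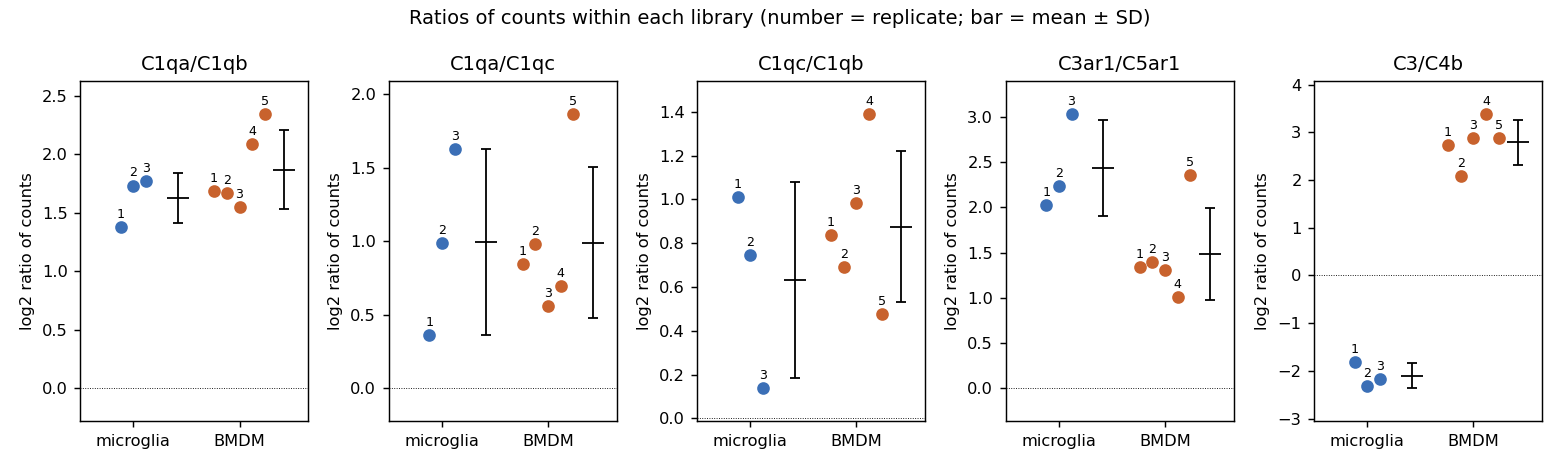
Log2 ratios of counts within each library (vertical axes) for 5 pairs of complement genes, microglia in blue and BMDM in orange, with the mean ± SD beside each group. The C1q ratios overlap between groups and reach 1.63 in microglia 3 and 1.87 in BMDM 5 for C1qa to C1qc, while C3 to C4b separates the groups without overlap.

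C4b, the component cut after C1q binds, was the clearest difference among the 9. The gene lies on chromosome 17, 34728380 to 34743882, minus strand, in the major histocompatibility region. It had 98.7, 102.7 and 136 CPM in microglia and 14.9, 7.63, 14.1, 11.1 and 22.4 in BMDM. Every microglia library stood above every BMDM library, and the highest BMDM value, in BMDM 5, was well under the lowest microglia value. The mean was 113 ± 20.7 CPM (SD, n = 3) against 14.0 ± 5.47 (n = 5), and C4b fell by 3.00 on the log2 scale (SE 0.37, adjusted p = 0.000817, edgeR; interval -3.79 to -2.21). The call held in each of the 17 alternatives, with values from -3.24 to -2.84. The neighbouring copy C4a is close in sequence: 142 of 971 windows of 75 bases in the last 500 bases of C4b transcripts also occur in C4a. C4a itself had 3 counts in BMDM 2, 8 in BMDM 5 and 0 elsewhere.

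C4b is also made by astrocytes. The 8 astrocyte markers summed to 146 to 237 CPM in microglia and 57.1 to 81.4 in BMDM, and 1 of 6 tested, Slc1a3, was called as lower in BMDM by edgeR; DESeq2 and limma-voom also called 1 of the list. The markers did not move together: 5 of the 8 had the higher mean in BMDM, and without Slc1a3 (84.6 to 134 CPM in microglia, 0 to 15.05 in BMDM) the sums were 35.7 to 102.7 against 54.0 to 67.0 and overlapped. Of the markers, S100b stood at 22.2 to 73.3 CPM in microglia and 0.159 to 42.3 in BMDM, and Aldh1l1 at 1.51 to 3.11 and 0 to 2.63. Gfap, the astrocyte filament gene, was at 0.556 to 0.894 CPM in microglia and 0 to 9.23 in BMDM, highest in BMDM 4, and Aqp4 at 0 to 0.158 and 0 to 0.686. The part of astrocyte RNA in the C4b value was not tested. In bulk libraries, fewer cells of a type and less RNA per cell cannot be told apart.

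C3, the component shared by all routes, was higher in BMDM. The gene is on chromosome 17, 57203970 to 57228136, minus strand. Microglia had 28.1, 20.5 and 30.5 CPM and BMDM 99.2, 32.3, 103.5, 116.7 and 164.2. BMDM 2 stood just above the microglia, BMDM 5 was the highest, and the groups did not overlap. The mean was 26.4 ± 5.20 CPM (SD, n = 3) against 103 ± 47.3 (n = 5). C3 rose by 1.97 (SE 0.47, adjusted p = 0.0435, edgeR; interval 0.97 to 2.96). The call was lost without any 1 microglia library, without BMDM 1, 3 or 4 (adjusted p 0.0743 to 0.207) and with limma-voom (0.0573).

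The C3 to C4b count ratio differed between the populations. Its log2 value was -1.81, -2.32 and -2.16 in microglia 1 to 3 and 2.73, 2.08, 2.88, 3.39 and 2.87 in BMDM 1 to 5. Every BMDM library lay above every microglia library. This ratio combines both genes already called and is no separate evidence.

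Cfp encodes properdin, the only known positive regulator of the alternative route, which steadies its C3-cutting enzyme. It lies on chromosome X, 20925454 to 20931555, minus strand. Microglia had 2.73, 4.73 and 4.12 CPM, and BMDM 60.6, 32.9, 45.8, 51.7 and 7.19. BMDM 5 was far below the other BMDM libraries, yet above all microglia. Means were 3.86 ± 1.02 CPM (SD, n = 3) and 39.6 ± 20.7 (n = 5), and Cfp rose by 3.36 (SE 0.62, adjusted p = 0.0115, edgeR; interval 2.03 to 4.69). The call was lost without microglia 1 (adjusted p = 0.0586) or microglia 3 (0.0719) and with limma-voom (0.102), and without BMDM 5 the value was 3.63 (SE 0.38, adjusted p = 0.00081). Among the 4782 genes that averaged 20 CPM or more, the closest to Cfp over the 8 libraries were Lyz2 (lysozyme, r = 0.99) and Plac8 (r = 0.98), both monocyte genes that were also low in BMDM 5. Lyz2 had 220.6 CPM there against 1269 to 2279 in BMDM 1 to 4.

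Cfb encodes factor B, whose active fragment cuts C3 in the alternative route. It lies on chromosome 17, 34856374 to 34862518, minus strand. Its counts were low, at 24, 8 and 0 in microglia and 11, 91, 114, 68 and 0 in BMDM 1 to 5. In CPM these were 1.26, 0.805 and 0 against 1.46, 11.2, 13.04, 10.8 and 0. BMDM 2, 3 and 4 were high, BMDM 1 was close to microglia 1, and BMDM 5 had none, so the groups overlapped. A count of 0 allows up to 3 counts, which is 0.334 CPM in microglia 3 and 0.415 in BMDM 5. The log2 fold change was 3.35 (SE 1.60, adjusted p = 0.374, edgeR; interval -0.054 to 6.76) and was not called. Reads of Cfb are less certain than others: 588 of 914 windows of 75 bases in its last 500 transcript bases also occur in the overlapping model Gm20547, which has 0 counts in every library.

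Markers of other cell types differed between the groups as well. Of all genes, edgeR called 1.93%, DESeq2 5.43% and limma-voom 2.37%, and 13.8% had an unadjusted p under 0.05 (edgeR). The 9 neutrophil markers summed to 37.0 to 41.0 CPM in microglia and 58.5 to 116.8 in BMDM. Of 6 tested, edgeR called 1, S100a8, as higher. Counted in either direction, DESeq2 called 5 and limma-voom 0, and 5 had an unadjusted p under 0.05. Csf3r, a neutrophil receptor gene, ran the other way, at 24.4 to 34.4 CPM in microglia and 5.33 to 16.0 in BMDM, and without it the sums were 2.67 to 13.3 against 50.5 to 111. Ly6g, which defines neutrophils, was at 0 in all microglia, with 1 count in BMDM 3 and 1 in BMDM 5. The 8 markers of border-associated macrophages summed to 50.5 to 102 CPM against 380 to 1037. Of 6 tested, edgeR called 3 as higher. Mrc1 was at 9.57 to 51.6 CPM in microglia and 15.9 to 351 in BMDM, and Lyve1 was at most 0.905 CPM in any library. The 10 T and NK cell markers summed to 3.34 to 12.4 CPM against 20.3 to 200.1. Of 8 tested, edgeR called 0, DESeq2 5 and limma-voom 0, and 6 had an unadjusted p under 0.05. Cd3e was at 0.111 to 1.21 CPM in microglia and 2.23 to 7.19 in BMDM. The 6 dendritic cell markers summed to 1.74 to 4.53 CPM in microglia and to 69.5, 18.3, 37.6, 46.6 and 2.90 in BMDM 1 to 5, so BMDM 5 fell within the microglia range, and 1 of 5 tested, Ccr7, was higher. Xcr1, which marks 1 dendritic cell type, was at 14.8, 6.53, 1.83, 0 and 0 CPM in BMDM 1 to 5, and Ccr7 at 40.1, 5.54, 25.3, 29.0 and 0.276. In BMDM 5, the dendritic and the T and NK sums were the lowest of the BMDM libraries, while C3 was the highest and Cfp the lowest of them. The part of these cells in the C3 and Cfp values was not tested. Sums of the B cell (1.61 to 8.45 against 3.69 to 11.1 CPM), oligodendrocyte (71.8 to 85.8 against 52.5 to 103.5) and neuron lists (23.2 to 40.4 against 23.9 to 81.9) overlapped. Those of endothelial cells and pericytes did not (33.6 to 67.3 against 70.3 to 81.4), with 0 of 8 called by edgeR, DESeq2 or limma-voom and 1 at an unadjusted p under 0.05. Without Flt1, the highest of this list in microglia, the sums were 26.25 to 43.6 against 38.7 to 58.1 and overlapped.

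Of the 2 receptor genes edgeR called 0, as did DESeq2 and limma-voom, and 1, C5ar1, had an unadjusted p under 0.05. C3ar1, the C3a receptor (chromosome 6, 122847138 to 122856161), had 153, 166 and 268 CPM in microglia and 160, 168, 234, 163 and 210 in BMDM. Microglia 3 was highest and the other microglia lay at the low end of BMDM or under it. The log2 fold change was -0.065 (SE 0.35, adjusted p = 0.972, edgeR; interval -0.81 to 0.68), and its sign turned to 0.11 with library totals alone. Across libraries C3ar1 followed C1qa, with r = 0.91, and C1qc less, with r = 0.10.

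C5ar1, the main C5a receptor (chromosome 7, 16246743 to 16259540), had 37.6, 35.1 and 32.7 CPM in microglia and 63.2, 63.9, 94.5, 80.7 and 40.9 in BMDM. All BMDM libraries were above all microglia, BMDM 5 only slightly so. The log2 fold change was 0.97 (SE 0.35, adjusted p = 0.209, edgeR; interval 0.22 to 1.72). It passed the test without BMDM 5, at 1.09 (adjusted p = 0.0331), in a fit that called 7.17% of all genes, and with only BMDM 1 to 3, at 1.08 (0.0197), in a fit that called 14.5% and in which Gm42418 shares also differ between groups. The log2 ratio of C3ar1 to C5ar1 counts was 2.03, 2.24 and 3.03 in microglia and 1.34, 1.40, 1.31, 1.01 and 2.36 in BMDM. Only BMDM 5 fell within the microglia range.

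**Figure D3:**
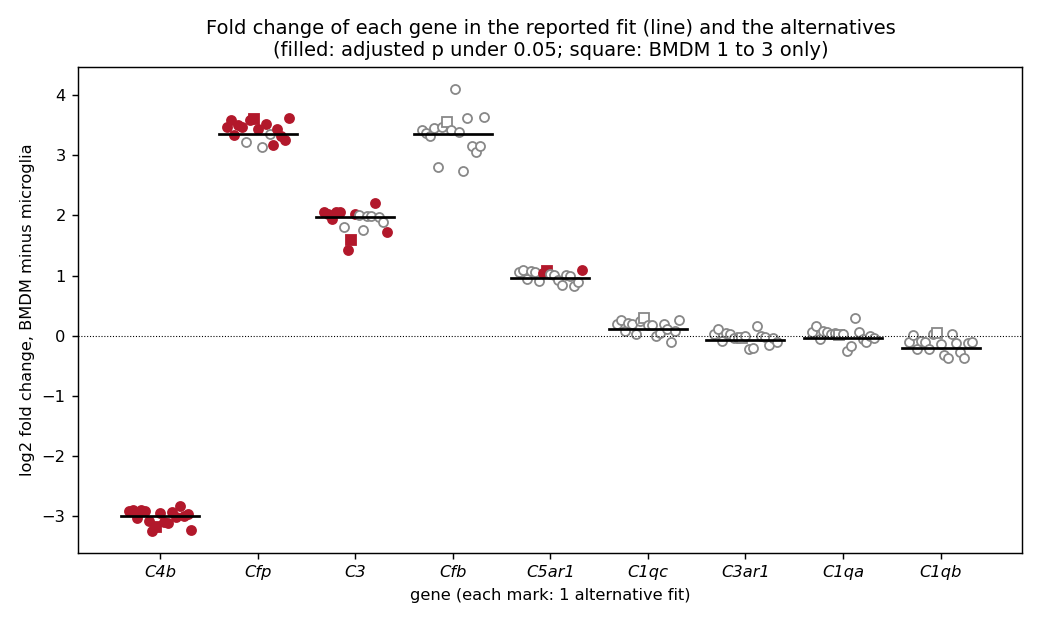
Log2 fold change (vertical axis, BMDM minus microglia) of each gene in the reported fit (black line) and in each alternative fit (marks, filled where the adjusted p was under 0.05, square for BMDM 1 to 3 only). C4b is filled in every fit, C3 and Cfp in most, and the C1q genes and C3ar1 lie around 0 and are filled in none.

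The rest of the pathway was followed in 52 further genes, of which 46 had a count and 24 passed the filter on low counts. Of the 24, edgeR called 1, Cd93, against 1.93% of all genes, and 5 had an unadjusted p under 0.05, against 13.8%. DESeq2 called 2, Cd93 and Itgax, against 5.43% of all genes. Cd93 encodes a surface protein first described as a C1q receptor of phagocytes. It had 12.1, 11.5 and 7.45 CPM in microglia and 100.8, 117, 124, 139 and 137 in BMDM. The groups were far apart, with little spread among BMDM. Cd93 rose by 3.57 (SE 0.38, adjusted p = 0.000346, edgeR; 11.9-fold) and was called in each of the 17 alternatives. The other C1q-binding proteins tested, Calr, Lrp1, Lair1 and C1qbp, had log2 fold changes of 0.0028 (SE 0.35), 0.45 (SE 0.38), -0.45 (SE 0.33) and -0.071 (SE 0.36).

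Among receptors for C3 fragments, the integrin genes differed in pattern. Itgax, the alpha chain of complement receptor 4, had 33.9, 48.4 and 37.9 CPM in microglia and 72.0, 121.7, 168, 77.4 and 130.5 in BMDM, without overlap. Its log2 fold change was 1.51 (SE 0.38, adjusted p = 0.0614, edgeR), and 9 of the 17 alternatives called it. Itgam, the alpha chain of complement receptor 3 and the gene of the sorted CD11b, had 305, 263 and 431.5 CPM in microglia and 130, 194.7, 203, 179 and 839 in BMDM. BMDM 5 was above and BMDM 1 to 4 below all microglia. The log2 fold change was -0.11 (SE 0.56, adjusted p = 0.97, edgeR) and -0.92 (SE 0.29, adjusted p = 0.0869) without BMDM 5. Itgb2, their shared beta chain, was at 0.69 (SE 0.43, adjusted p = 0.556), and at 1.05 (0.0453) with only BMDM 1 to 3. Vsig4, a C3b receptor of resident macrophages in other organs, had 0 counts in all 8 libraries.

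Most genes of the other arms of the cascade were low. Of their 14 tested genes edgeR, DESeq2 and limma-voom each called 0, against 1.93%, 5.43% and 2.37% of all genes. An unadjusted p under 0.05 was seen for 3, against 13.8% of all genes. Of 14 initiators of the classical and lectin routes, 4 were tested, and 2 had 0 counts everywhere. C2 was at 4.67 to 7.84 CPM in microglia and 1.35 to 4.12 in BMDM. Cfd, factor D, had 55 counts in BMDM 4 and 7, 1 or 0 in the other libraries. Of 7 terminal components only Hc, which encodes C5, was tested, with 14 to 67 counts in microglia, 14 in BMDM 2 and 0 in the other BMDM libraries. Of 8 soluble regulators 3 were tested. Among 10 membrane regulators 6 were tested, and Cr1l, the mouse regulator Crry, was at 47.5 ± 4.23 CPM (SD, n = 3) in microglia and 45.8 ± 6.84 (n = 5) in BMDM.

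**Figure D4:**
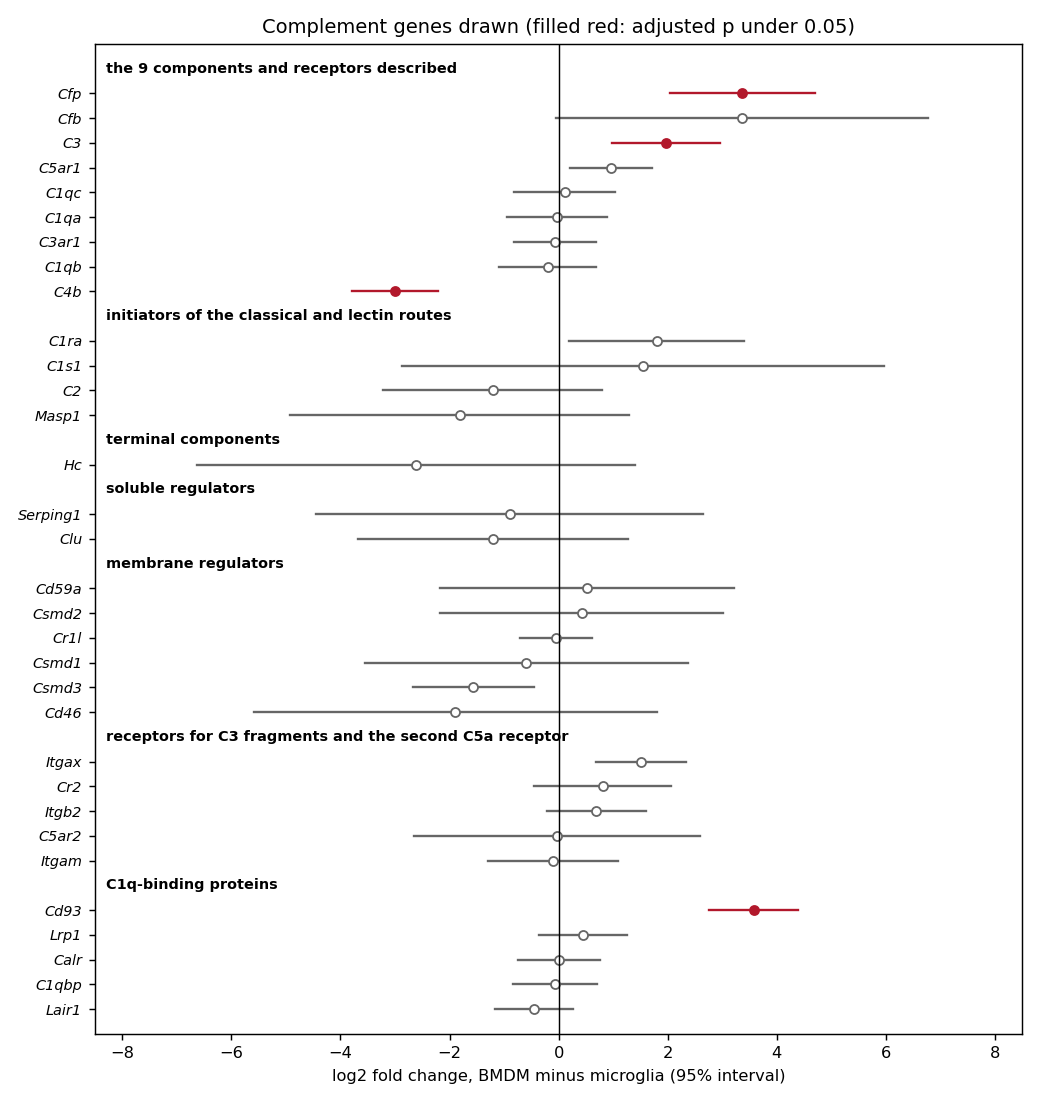
Log2 fold change (horizontal axis, BMDM minus microglia) with its 95% interval for the 9 genes and 23 of the 24 further complement genes tested, grouped by role. Red filled points have an adjusted p under 0.05: Cfp, C3 and Cd93 on the BMDM side and C4b on the microglia side.

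By the same measure of likeness, the genes closest to the mean of the 3 C1q genes were Cdc42 (r = 0.97), Tmem86a (0.94), Arf6 (0.92) and Plcg2 (0.92). Cdc42 and Arf6 encode small GTPases of the cytoskeleton and of membrane traffic, and Plcg2 a phospholipase of immune receptor signaling. C4b was followed most closely by Nuak1 (r = 0.995) and Eml4 (0.99). For C3 these were Rab11fip1 and Itpr1 (both 0.95), for C3ar1 Farsb (0.97) and Adam15 (0.94), for C5ar1 Ifitm3 and Psmb10 (both 0.98), and for Cfb Mydgf and Set (both 0.97). Each r is over 8 libraries and was the highest among 4782 genes, so it describes a pattern and carries no test.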

How the data were processed

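One deposited table holds raw counts of reads per gene, as whole numbers with a different total in each library. Per the labels' protocols, RNA went into QuantSeq 3′ FWD libraries, read as 75-base single reads on a NextSeq500. Per the submitters' processing notes, STAR, featureCounts, cutadapt, FastQC and DESeq2 were used with mm10. Versions, the strand setting and the treatment of reads matching several places or genes are not given in the sources used here, so overlapping or near-identical genes are less certain. A 3′ read count is not divided by length. How fully the reads of each gene were captured and assigned was not tested. Count ratios of 2 genes are therefore compared between libraries only, and are not read as which gene has more mRNA.

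The 9 genes and the lists (52 further pathway genes, 11 marker lists) were chosen with earlier results of these data known. The fit used edgeR 4.0.16 (R 4.3.3): filterByExpr (minimum count 10, minimum total 15) left 16467 of 55450 genes, followed by TMM scaling and robust quasi-likelihood fits over all 8 libraries. Standard errors derive from the F statistic, and log2 CPM used a prior count of 2. All gene IDs (100%) matched GENCODE M21 (GRCm38), which gave positions and transcripts; promoters are from RefSeq (GRCm38.p6).

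Named genes were the 9, called pathway genes and the 8 uncalled ones with the highest mean CPM; C2, C4a, Cfd, Gm20547, Hc, Vsig4 and single markers were added after their values were seen. For likeness, the 2 closest genes (4 for C1q) were named. No 2 libraries of a group agreed within sampling noise (lowest chi-square per degree of freedom 19.0). Alternatives were DESeq2 1.42.0, limma-voom (limma 3.58.1), RLE factors, library totals, 2 other filters, a replicate block, BMDM 1 to 3 only, each library left out, and the table without Gm42418 and mitochondrial rRNA. The script was tested on simulated counts. The values of 1 listed regulator are not reported here.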

Additional observations from a re-analysis of the deposited data

Results flagged for a closer look

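Of 18 named genes checked among the 5 BMDM libraries, 1 had a library far from the others. Itgam was at 839.4 CPM in BMDM 5, against 203.3 in the next highest, BMDM 3. For normally distributed values, chance sets a library apart in this way in about 1 in 20 groups. Whether CPM are so distributed was not tested.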

How the results depend on the processing

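With every alternative C4b and Cd93 kept their calls and signs. The number of the 9 genes called was 3, against 1 with limma-voom and 4 with only BMDM 1 to 3, and it ran from 1 to 4 with 1 library left out. Of the further pathway genes 1 was called, against 2 with RLE factors, the stricter filter, DESeq2, limma-voom, or Gm42418 and mitochondrial rRNA left out, 3 without a filter, 6 with only BMDM 1 to 3, and 1 to 2 with 1 library left out. Over all genes 317 (1.93% of those tested) were called, against 987 (5.43%) with DESeq2 and 2340 (14.5%) with only BMDM 1 to 3. Without a filter it was 721, which is 2.31% of 31187 genes. RLE factors called 2.02%, the stricter filter 4.63%, limma-voom 2.37%, and the table without Gm42418 and mitochondrial rRNA 1.99%. Leaving out 1 library gave from 104 (0.576%, without microglia 3) to 1138 (7.17%, without BMDM 5). Deviations from the group mean had r = 0.28, 0.13 and -0.0065 between same-numbered libraries 1 to 3. Between libraries of unlike number, r ran from -0.30 to 0.27. With 3 and 5 libraries this cannot decide whether the numbers mark pairs, and they were not taken as pairs. With the replicate block, 3223 genes in all were called, 19.6% of those tested. Among them were 4 of the 9 genes and 8 further pathway genes. They included C5ar1 at 1.05 (adjusted p = 0.0119), Itgam at -0.92 (0.0218) and Itgb2 at 0.96 (0.0165), edgeR. BMDM 4 and BMDM 5 have no microglia library of the same number, so the difference in this fit rests on numbers 1 to 3. It is thus close to the fit with only BMDM 1 to 3, where C5ar1 was at 1.08 and Itgam at -0.90. Values near 0 changed sign. With RLE factors, C1qa was at 0.065, C3ar1 at 0.028, C1qbp at 0.017 and Cr1l at 0.048. With library totals, C1qa was at 0.16, C1qb at 0.015, C3ar1 at 0.11 and Cr1l at 0.10. Without a filter, Calr was at -0.025. With the stricter filter, C1qa was at 0.083, C3ar1 at 0.044, C1qbp at 0.027 and Cr1l at 0.059. With DESeq2, C1qa was at 0.065, C3ar1 at 0.028, C1qbp at 0.016 and Cr1l at 0.048. With limma-voom, C1qa was at 0.024. With the replicate block, C1qa was at 0.041, C1qb at 0.033, Calr at -0.074 and Cr1l at 0.068. With BMDM 1 to 3, C1qa was at 0.012, C1qb at 0.046, Calr at -0.066 and Cr1l at 0.078. Without Gm42418 and mitochondrial rRNA, C1qa was at 0.034 and Cr1l at 0.016. With 1 library left out, values ran from -0.25 to 0.29 for C1qa, -0.37 to 0.035 for C1qb, -0.098 to 0.26 for C1qc, -0.23 to 0.15 for C3ar1, -0.13 to 0.071 for Calr, -0.92 to 0.094 for Itgam, -0.37 to 0.054 for C1qbp and -0.14 to 0.022 for Cr1l. Library totals moved the median gene by 0.13 toward BMDM. The cause of these changes was not tested. Genes of few counts, such as Cfb, had wide intervals at this depth.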
